A study of Homo sapiens with 68 samples.

Results

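The data are peak lists of hnRNPA1, made without the gel step of the protocol, set against those of 3 other RNA-binding proteins made the same way. In TLC-CLIP, the method used, ultraviolet light links proteins to the RNA they touch, an antibody pulls a chosen protein down, and the RNA that comes with it is sequenced. The libraries were taken by their titles: 4 of hnRNPA1 (groups hnRNPA1_50k_noPAGE and hnRNPA1_50k_noPAGE_RecJ, 2 libraries each) and 12 of hnRNPc, hnRNPI and RBFOX2 (4 each, in the same pair of groups), which makes 16 of the 68 libraries in the series. All 16 came from HEK293T, a transformed human embryonic kidney line grown as an adherent culture, with 50000 cells and 0.005 U of RNase per library, crosslinking on ice and a single antibody per protein (clone 4B10 for hnRNPA1, an antibody named RBM9 for RBFOX2). The groups differ in the protein pulled down and in RecJ, an exonuclease used in library preparation to remove adapter. None of the 16 had the protein-RNA complexes separated on a polyacrylamide gel (PAGE) and excised, so RNA that sticks to the beads or to other proteins is not removed by size. The labels do not say whether the 2 libraries of a group came from separate cultures, and the p-values below measure the spread between these libraries, which may be technical.

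hnRNPA1 is an abundant nuclear protein with 2 RNA recognition motifs that binds UAG-type sequences and is best known for repressing splice sites, for binding telomeric repeats and for helping to process certain microRNA precursors. hnRNP C binds uridine tracts in nascent transcripts, hnRNPI is the pyrimidine tract binding protein, and RBFOX2 is a splicing regulator that recognises GCAUG. All of them meet unspliced RNA in the nucleus, and a comparison between them asks which transcripts, and which places along a transcript, one protein occupies more than the others.

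The 4 hnRNPA1 lists held 499537 and 523402 peaks without RecJ and 450313 and 493269 with it, in 14683 to 15104 genes per library. The other lists held 379280 to 487908 peaks for hnRNPc, 335107 to 353415 for hnRNPI and 157375 to 161434 for RBFOX2. Read totals were not given, so the sequencing depth is unknown, and no counting interval or detection limit can be given. Because list lengths differ, a gene is described by its share, the number of its peaks per 100000 peaks listed in that library. Between the 4 libraries of hnRNPA1 the log2 share of a gene had a median SD of 0.13, and this SD was 0.15 in hnRNPc, 0.15 in hnRNPI and 0.24 in RBFOX2 libraries. The lists name genes by Ensembl identifier without symbols, so most genes are given here by the hg19 position of their outermost peaks over all 68 lists. Of the hnRNPA1 peaks, 6.07 to 6.40% were listed under 2 overlapping genes and count for both.

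Which genes hnRNPA1 peaks favoured was asked first with all listed peaks. Few genes had a share of hnRNPA1 peaks that stood apart from every other protein: 2 of the 9287 genes tested were higher in hnRNPA1 than in each of the 3 proteins (0.0215% of the genes) and 15 were lower (0.162%). Against the mean of the 3 proteins, 150 genes were higher (1.62%) and 237 lower (2.55%). The test was limma with Benjamini-Hochberg adjustment over all genes with a mean share of at least 2, and a call needed an adjusted p below 0.05 and a difference of at least 1 on the log2(share + 1) scale, which understates the change of genes with few peaks. One protein at a time, hnRNPc differed least, with 379 genes higher in hnRNPA1 (4.08%) and 194 lower (2.09%). For hnRNPI there were 1175 higher (12.7%) and 434 lower (4.67%), and for RBFOX2 1946 higher (21.0%) and 2119 lower (22.8%). All 4 hnRNPA1 libraries lay above all 12 others in 306 genes (3.29%) and below them in 231 (2.49%). A test of whether RecJ altered the difference from the mean passed in 0 of the 9287 genes by limma (224 at an unadjusted p below 0.05). Counts this small depend on the scale: with log2 shares centred on the median of all genes, which lies 0.09 above 0 for the difference from the mean, the calls were 96 higher and 333 lower, and against hnRNPI 819 higher and 685 lower.

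**Figure D1:**
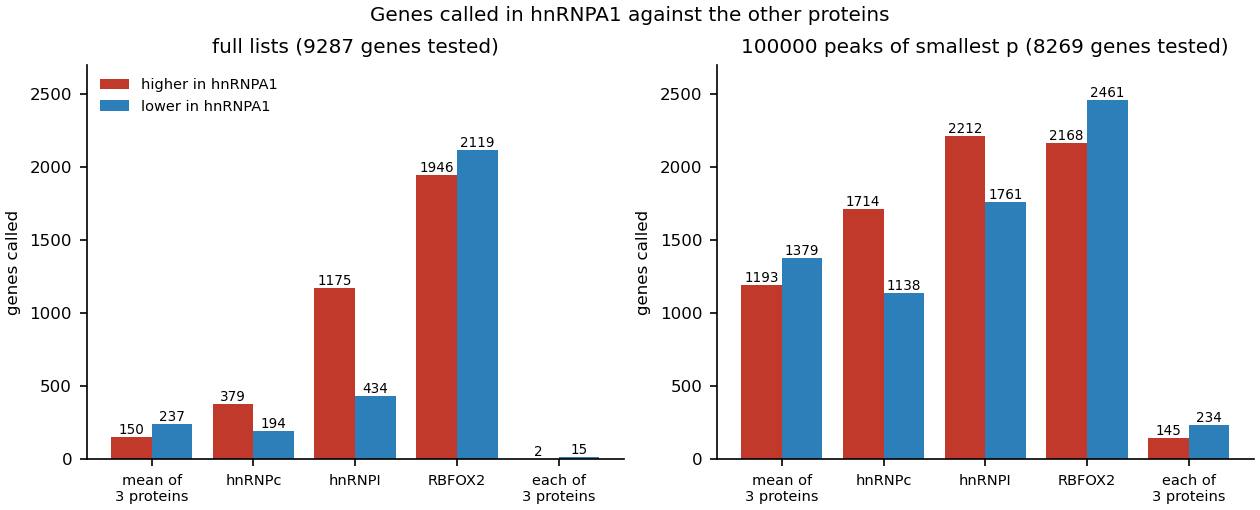
Number of genes called higher (red) or lower (blue) in hnRNPA1 than in the mean of the 3 proteins, in each protein, and in all 3 at once, with all listed peaks (left, 9287 genes tested) and with the 100000 peaks of smallest p of each library (right, 8269 genes tested). The 2 bars for all 3 proteins at once stand at 2 and 15 on the left and at 145 and 234 on the right.

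Both genes higher against each protein have shares under 10 and so lie outside the rule for named genes, and they were picked after their values were seen. ENSG00000100983.5 (chr20:33516261-33543585, minus strand) had 5.81 and 6.30 peaks per 100000 in the hnRNPA1 libraries without RecJ and 5.55 and 5.88 in those with RecJ. The hnRNPc libraries had 2.04, 3.18, 2.11 and 2.25, the hnRNPI libraries 1.41, 1.17, 0.584 and 0.895, and the RBFOX2 libraries 2.54, 1.24, 1.86 and 3.12. The 4 hnRNPA1 values lie close together and above all 12 others. The difference from the mean of the 3 proteins was 1.32 (SE 0.14) on the log2 scale, with an adjusted p of 4.4e-07 (limma). The mean share over the 12 others was 1.87, under the minimum of 2 for testing. The gene thus entered the test only through hnRNPA1, and its call is partly set by that filter.

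ENSG00000140263.9 (chr15:45315365-45369210, plus strand) showed the same order of groups. Its hnRNPA1 shares were 9.61, 9.36, 11.5 and 8.92, a mean of 9.86 ± 1.16 (SD, n = 4), while the means of hnRNPc, hnRNPI and RBFOX2 were 4.01 ± 0.471, 3.34 ± 0.822 and 4.21 ± 0.755 (SD, n = 4 each). No library of another protein exceeded 4.99. The log2 difference from the mean was 1.17 (SE 0.13, adjusted p = 5.9e-07, limma). Neither call is firm at the threshold of 1. With the RecJ libraries alone 0 genes were higher against each protein in limma (0 also at an unadjusted p below 0.05 and the same fold), and with the others alone 1 was. A single gene remained without hnRNPA1_50k_noPAGE_RecJ replicate 1, without hnRNPc_50k_noPAGE replicate 1 and without either RBFOX2_50k_noPAGE replicate.

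The 15 genes lower in hnRNPA1 than in each protein spanned 3293 to 87824 nt, and 5 of them lie on chromosome 19. In all 15 the 4 hnRNPA1 libraries lay below all 12 others, as they did in 231 of the 9287 genes tested (2.49%). The calls used the same libraries, so this separation adds little to them. ENSG00000148411.3 (chr9:138898460-138986283, minus strand) had hnRNPA1 shares of 3.20, 3.82, 3.55 and 2.23. The same gene had 8.38, 9.33, 8.17 and 9.84 for hnRNPc, 7.64, 7.31, 9.93 and 9.25 for hnRNPI, and 15.9, 17.96, 14.9 and 15.6 for RBFOX2. The lowest of the 12 is thus well above the highest hnRNPA1 library, and the log2 difference was -1.49 (SE 0.10, adjusted p = 3.3e-09, limma). A gene at chr19:14628990-14676613 followed the same course, with a mean hnRNPA1 share of 2.76 ± 0.679 against 11.1 ± 0.922 for hnRNPc, 6.57 ± 0.820 for hnRNPI and 15.3 ± 3.65 for RBFOX2 (SD, n = 4 each). The log2 difference there was -1.61 (SE 0.12, adjusted p = 5.0e-09, limma).

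Another of the lower genes, ENSG00000126016.9 (chrX:112018231-112084012, minus strand), had few hnRNPA1 peaks but many reads in them. Its hnRNPA1 shares were 5.00, 5.92, 5.11 and 6.08, against 12.7 to 20.3 for hnRNPc, 27.2 to 27.7 for hnRNPI and 36.03 to 42.7 for RBFOX2, a log2 difference of -2.04 (SE 0.09, adjusted p = 7.5e-12, limma). The last number in a peak's name, at least 4, was taken for its read count, a meaning that no label states. Summed over the gene these came to 1300 ± 156 per 1000000 in hnRNPA1 libraries, against 463 ± 37.2 with hnRNPc, 1186 ± 47.3 with hnRNPI and 356 ± 29.7 with RBFOX2 (SD, n = 4 each). On this measure the gene was higher in hnRNPA1 than in the mean of the 3 proteins, by 1.14 (SE 0.06, adjusted p = 8.6e-13, limma). The median gene lay 0.39 above 0 on this scale. The hnRNPA1 libraries (1107 to 1488) overlapped those of hnRNPI (1151 to 1256). The highest single peak held 3143 to 4241 reads, or 22.2 to 31.02% of the gene's hnRNPA1 reads, whereas the highest peak of another protein held 145 to 849 reads and 4.23 to 7.98%. hnRNPA1 libraries without crosslinking had more reads in this gene, 5001 and 5476 per 1000000 without PAGE and 2724 and 3091 with PAGE. Without crosslinking or PAGE the highest peak held 4090 and 5043 reads. Crosslinked hnRNPA1 libraries with PAGE had 1123 and 1175 per 1000000. The part of uncrosslinked RNA in these reads was not tested.

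**Figure D2:**
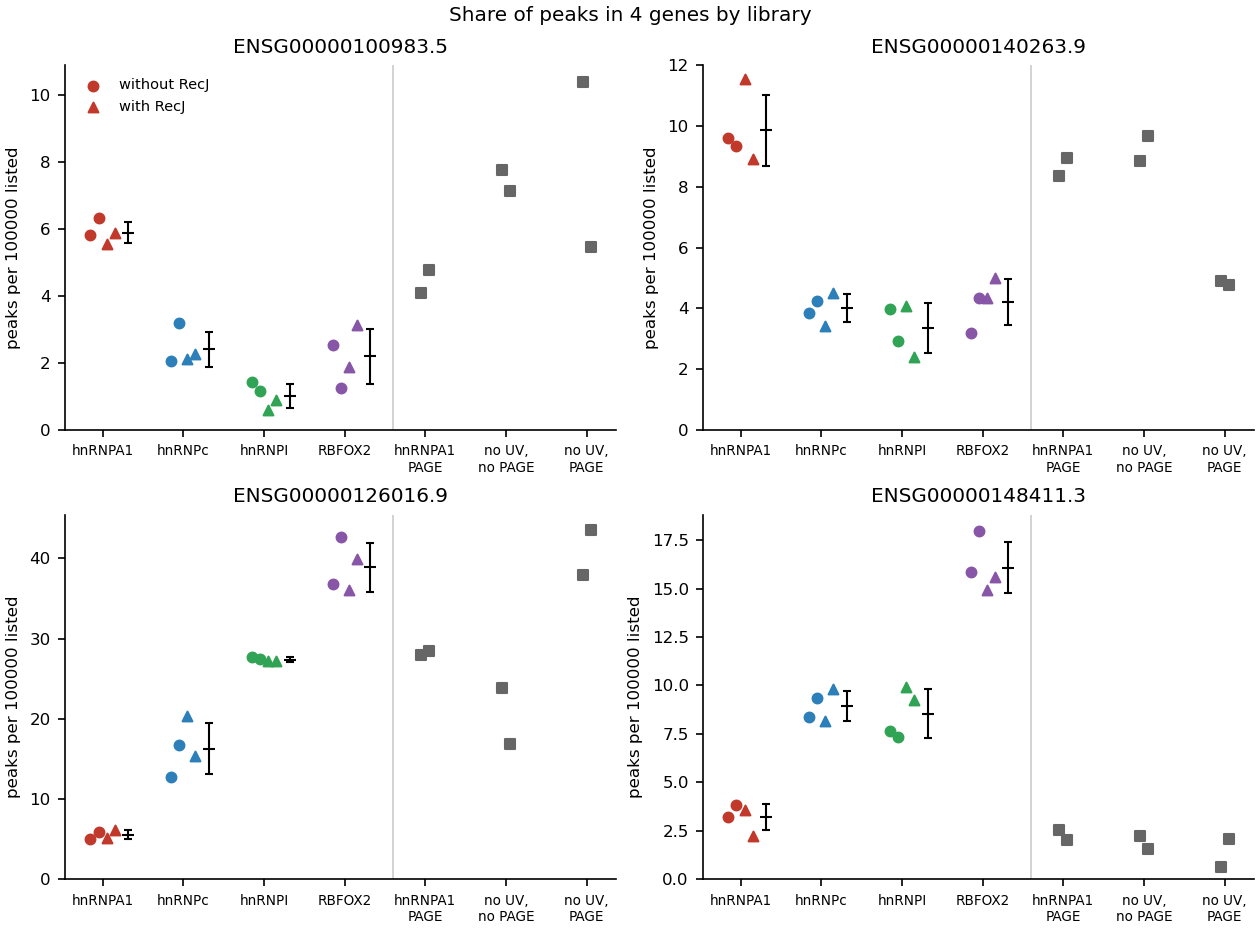
Peaks per 100000 listed peaks in 4 genes, 1 point per library (circles without RecJ, triangles with RecJ), with the mean and SD of the 4 libraries of each protein beside them as a black bar. Grey squares right of the line are hnRNPA1 libraries with PAGE and without crosslinking, which the test did not use. hnRNPA1 lies above the 3 proteins in the upper genes (means of 5.89 and 9.86) and below them in the lower genes (5.53 and 3.20).

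Other hnRNPA1 preparations, none of which entered the test, gave unlike values for these 4 genes. ENSG00000148411.3 stayed low, at 2.52 and 1.99 per 100000 with PAGE and 0.611 to 2.22 in the 4 libraries without crosslinking. ENSG00000140263.9 had 8.34 and 8.97 with PAGE and 8.87 and 9.68 without crosslinking or PAGE, but 4.89 and 4.76 without crosslinking and with PAGE, the level of the other proteins. ENSG00000100983.5 had 4.08 and 4.78 with PAGE, 7.76 and 7.13 without crosslinking or PAGE, and 10.4 and 5.45 without crosslinking but with PAGE. ENSG00000126016.9 was not low elsewhere: it had 27.9 and 28.5 with PAGE, 23.8 and 16.8 without crosslinking or PAGE, and 37.9 and 43.6 without crosslinking but with PAGE. In that gene the 4 crosslinked libraries made without PAGE thus had lower shares than the 6 other hnRNPA1 libraries.

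The genes that held most hnRNPA1 peaks were very long and were shared with the other proteins. The highest mean shares were 226 ± 9.95 per 100000 for the gene at chr7:69063931-70257822, 225 ± 12.04 at chr13:93879120-95058745, 195 ± 5.00 at chr3:59735115-61237122, 173 ± 2.94 at chr2:140994704-142888587 and 157 ± 1.79 at chr10:52751104-54056534 (SD, n = 4). Per length, these were 9.31, 9.34, 6.37, 4.48 and 5.92 hnRNPA1 peaks per 10 kb. By the same measure ENSG00000100983.5 held 10.6 per 10 kb and ENSG00000140263.9 held 8.96. The chromosome 10 gene had 117 per 100000 for hnRNPc, 151 for hnRNPI and 56.5 for RBFOX2. Its hnRNPA1 share exceeded that of RBFOX2 by 1.46 on the log2 scale and that of hnRNPI by 0.06, and the latter did not pass the test (adjusted p = 0.21, limma). Against hnRNPI the chromosome 7 and 3 genes were lower in hnRNPA1, by -0.10 and -0.15 (adjusted p = 0.020 and 0.0058, limma). The chromosome 13 gene was higher by 0.13 (adjusted p = 0.017, limma), and the chromosome 2 gene differed by 0.04 (adjusted p = 0.47, limma).

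In the full lists, the genes called lower and higher differed in length and surroundings. The 237 genes lower in hnRNPA1 than in the mean had a median span of 19392 nt and 29 other genes within 500 kb, against 45668 nt and 13 for all genes tested and 59732 nt and 7 for the 150 higher genes. Chromosome 19, the most gene-dense chromosome, held 53 of the 237 lower genes (22.4%) and 2 of the 150 higher genes (1.33%), beside 5.91% of all genes tested. Among the 100000 strongest peaks of each library, compared below, the difference in length was small: the genes higher against each protein had a median span of 34424 nt and the lower ones 30229 nt, both under the 42566 nt of all genes tested there, with 10 and 19 other genes within 500 kb. These are descriptions of lists chosen by the test and carry no test of their own. Over whole libraries, chromosome 19 took 2.62 ± 0.0761% of hnRNPA1 peaks, 3.38 ± 0.0248% of hnRNPc peaks, 2.66 ± 0.0235% of hnRNPI peaks and 6.77 ± 0.0772% of RBFOX2 peaks (SD, n = 4 each). Chromosome 13, which is gene-poor, took 3.05 ± 0.0311% of hnRNPA1 peaks against 2.77, 2.93 and 2.04%, with no overlap between hnRNPA1 and the other libraries. Chromosomes 4, 18 and X took more of the hnRNPI peaks (4.72, 2.23 and 3.73%) than of the hnRNPA1 peaks (4.61, 2.09 and 3.14%). In an exact two-sided permutation test within RecJ states the p-values were 0.0434 for chromosome 19 and 0.0332 for chromosomes 2 and 13. After Benjamini-Hochberg adjustment of this test over the chromosomes all were 0.257. Genes with more than 22 other genes within 500 kb held 11.98% of hnRNPA1 peaks, 13.9% of hnRNPc peaks, 10.8% of hnRNPI peaks and 27.8% of RBFOX2 peaks, so hnRNPA1 lay between hnRNPI and hnRNPc.

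Gene length placed hnRNPA1 in the same order. Genes spanning at least 100 kb held 54.5 ± 0.485% of its peaks, against 50.5 ± 0.584% for hnRNPc, 60.5 ± 0.108% for hnRNPI and 35.2 ± 0.182% for RBFOX2 (SD, n = 4 each). The median hnRNPA1 peak lay in a gene spanning 112790 nt, against 101180, 132449 and 58260 nt. The 100 genes with most peaks held 9.15 ± 0.0817% of hnRNPA1 peaks, against 8.405, 9.96 and 7.41%. Each pair of proteins was separated with no overlap on these 3 measures, but hnRNPA1 is neither highest nor lowest on any. The difference from the 12 other libraries together did not pass the exact permutation test (adjusted p of 0.649 for each, two-sided). For hnRNPA1 against 1 protein the exact p was 0.0556, the smallest that 4 against 4 libraries within RecJ states allow.

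Lists of equal length gave more called genes, though the cut was not equally strict for each protein. It kept a smaller part of the hnRNPA1 lists (450313 to 523402 peaks) than of the hnRNPI (335107 to 353415) or RBFOX2 lists (157375 to 161434). When each library was cut to its 100000 peaks of smallest p, 145 of 8269 genes were higher in hnRNPA1 than in each protein (1.75%) and 234 were lower (2.83%). Of the 2 higher genes from the full lists, 0 were among the 145, and 9 of the 15 lower genes were among the 234. Against the mean of the 3 proteins 1193 genes were higher (14.4%) and 1379 lower (16.7%). One protein at a time, 1714 genes were higher (20.7%) and 1138 lower (13.8%) against hnRNPc, 2212 higher (26.8%) and 1761 lower (21.3%) against hnRNPI, and 2168 higher (26.2%) and 2461 lower (29.8%) against RBFOX2. The genes named here are the 5 each way whose smallest difference over the 3 proteins was largest, without overlap and with at least 10 peaks on the higher side, a list added after the data were seen.

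The first of the higher genes lies at chr20:19997991-20014193 and spans 16203 nt. It had 16 and 10 hnRNPA1 peaks without RecJ and 14 and 13 with RecJ. hnRNPc had 3, 2, 1 and 0, hnRNPI had 0 in all 4 libraries, and RBFOX2 had 1, 1, 2 and 2. The adjusted p against the mean was 4.3e-08 (limma). A gene at chr12:69139961-69185717 had 17, 14, 15 and 17 hnRNPA1 peaks, and no library of another protein had more than 5 (adjusted p = 5.6e-07, limma). A gene at chr18:32870286-32890666 had 15, 16, 11 and 14 against at most 4 (adjusted p = 1.9e-05, limma). The genes at chr7:75625687-75677307 and chr14:56996077-57115894 each had a mean of 11.5 ± 1.73 (SD, n = 4) against means of 0.750 to 3 for the other proteins. At chr20:19997991-20014193, chr12:69139961-69185717 and chr7:75625687-75677307 the mean over the libraries of other proteins was under 2, the minimum for testing. Those genes thus entered the test only through hnRNPA1, and their calls are partly set by that filter. All 5 named genes stand apart among the strongest peaks, and most of them do so less over the full lists. In the chromosome 12 gene the full-list share was 7.39 for hnRNPA1 and 8.84 for hnRNPc, and in the chromosome 18 gene the full-list difference from the mean was 0.16 (adjusted p = 0.31, limma). The number of strong peaks and the number of all peaks in a gene are thus separate quantities here.

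Among the strongest peaks the lower genes came close to 0. The gene at chr16:70695286-70719695 had 1, 0, 3 and 1 hnRNPA1 peaks, against 19 to 24 for hnRNPc, 15 to 21 for hnRNPI and 22 to 26 for RBFOX2 (adjusted p = 2.6e-08, limma). The gene at chr7:2291488-2393707 had 1, 1, 2 and 0, against 26 to 36, 10 to 13 and 8 to 14 (adjusted p = 1.4e-07, limma). At chr9:132934961-132999542 there was a single hnRNPA1 peak in the 4 libraries together, against a mean of 22.8 ± 4.11 for hnRNPI, 7 ± 0.816 for hnRNPc and 6 ± 0.816 for RBFOX2 (SD, n = 4 each). At chr19:17447656-17453467 hnRNPA1 had a mean of 0.75 and RBFOX2 one of 23.8, and at chr1:2160261-2241516 they had 3 and 56.2. The last gene was not short of hnRNPA1 peaks over the full lists, where its share was 15.7 and that of hnRNPI 15.01.

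The hnRNPA1 libraries of other preparations, cut to the same length, varied by gene. The chromosome 20 gene had 9 and 9 peaks with PAGE, 12 and 13 without crosslinking or PAGE, and 13 and 12 without crosslinking but with PAGE. The chromosome 16 gene had 3 and 3 with PAGE but 11 and 5 without crosslinking or PAGE. The lower gene on chromosome 7 had 6 and 5 with PAGE and 11 and 9 without crosslinking or PAGE, the latter within the range of RBFOX2. The chromosome 18 gene had 15 and 13 with PAGE but 5 to 11 in the 4 libraries without crosslinking, and the chromosome 12 gene had 12 and 13 with PAGE and 8 to 11 without crosslinking. Over the 145 higher genes the median was 10.5 peaks in the 4 libraries, 8.5 in hnRNPA1 libraries without crosslinking or PAGE and 2.42 in the 12 libraries of other proteins. Over the 234 lower genes the medians were 0.75, 2 and 8.08, and over all genes tested they were 6, 7.5 and 7.25. Crosslinked hnRNPA1 exceeded the uncrosslinked libraries in 97 of the 145 higher genes (66.9%) and in 36 of the 234 lower genes (15.4%), beside 43.1% of all genes tested. Both sets of genes were chosen by the crosslinked libraries, so these percentages and medians are partly set by that choice. In the median, the libraries without crosslinking lay on the same side of the other proteins as the crosslinked ones. With PAGE, in separate libraries of all 4 proteins, hnRNPA1 was above the mean of the others in 142 of the 145 genes and below it in 221 of the 234, beside 62.6% and 37.3% of all genes tested. Without hnRNPc_50k_lowRNase replicate 1, a list of 3268 peaks, the counts were 141 and 231, beside 52.5% and 47.3%.

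Genes found by hnRNPA1 alone were few. Of the 13441 genes with a peak in all 4 hnRNPA1 libraries, 98 had none in the 12 others. They held a mean of 1.47 peaks and at most 8, so each rests on a handful of peaks. In the other direction, 6 genes had a peak in all 12 libraries and none in hnRNPA1. These counts are not alike, since the first asks for a peak in 4 lists and the second in 12. The 12 also include the shorter RBFOX2 lists. At equal length the numbers were 77, of 8020 genes with a peak in all 4 hnRNPA1 libraries, and 50, under the same unlike rules.

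The place of peaks within a gene was compared in windows of 5 kb, by the share of the gene's own peaks that fell in each. In all, 814 of 11136 windows were higher than the mean of the 3 proteins (7.31%) and 1083 lower (9.73%), by limma with Benjamini-Hochberg adjustment and the same thresholds. Against each protein, 23 windows were higher (0.207%) and 322 lower (2.89%). Which direction had more calls depended on the setting: windows of 20 kb gave 1472 higher and 776 lower, the 100000 strongest peaks 219 and 156, and peaks with p below 1e-05 gave 432 and 413. The windows of 5 kb lie in 1721 genes, of which 595 had a higher window and 766 a lower one. Both kinds occurred in 323 genes, 54.3% of the 595 and 42.2% of the 766. In 137 genes a higher and a lower window lay within 10 kb of each other. The value tested is a share of the gene's own peaks, so a rise in a window lowers the rest of the gene. Finding both kinds in a gene is therefore partly built in. The higher windows centred at a median of 35.8% of the gene from its 5′-most peak, the lower ones at 35.2% and all tested windows at 31.6%.

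A gene on chromosome 19 that spans 41176 nt had windows of both kinds. In its window at chr19:34875001-34880000 hnRNPA1 had 22, 26, 19 and 16 peaks. hnRNPc had 0 in all 4 libraries, hnRNPI had 2, 2, 2 and 1, and RBFOX2 had 6, 5, 6 and 5. This window held 38.7% of the gene's hnRNPA1 peaks and 0, 6.47 and 7.88% of those of the others, while hnRNPA1 and hnRNPc had 53.5 and 49.5 peaks in the whole gene (adjusted p = 4.4e-08 against the mean, limma). It met the minimum mean of 5 peaks per window only through hnRNPA1, so the call is partly set by that filter. In the last window, chr19:34890001-34895000, the order turned, with 0 peaks in each hnRNPA1 library and a mean of 15.2 for hnRNPc, 7.5 for RBFOX2 and 2 for hnRNPI (adjusted p = 4.8e-09, limma). The neighbouring window at chr19:34880001-34885000 was occupied by hnRNPA1 (mean 19.5), RBFOX2 (33.8) and hnRNPI (15) but hardly by hnRNPc (1). The hnRNPA1 peaks thus crowd into about 10 kb of the gene. The same window held 25 and 26 peaks in hnRNPA1 libraries with PAGE and 17 to 21 in the 4 without crosslinking.

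In a gene on the X chromosome spanning 31991 nt, hnRNPA1 and hnRNPc lay in windows that hnRNPI and RBFOX2 left empty. In its window chrX:73065001-73070000 hnRNPA1 had 25, 21, 27 and 26 peaks and hnRNPc had 25, 23, 19 and 25, while hnRNPI and RBFOX2 had 0 in every library. The window held 17.8% of the gene's hnRNPA1 peaks and 11.9% of its hnRNPc peaks, a difference that did not pass the test (adjusted p = 0.060, limma), while the difference from the mean did (adjusted p = 2.2e-08, limma). In the 3′-most window, chrX:73040001-73045000, hnRNPA1 had a mean of 47 and hnRNPc 39.8, against 1.25 for hnRNPI and 0.75 for RBFOX2. hnRNPI instead had 91 in the window before it and RBFOX2 60.8 in the 5′-most one. hnRNPA1 and hnRNPc each had at least 17 peaks in the same 5 of the 7 windows, while nearly all RBFOX2 peaks lay in the 5′-most one and most hnRNPI peaks in one window.

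The other named windows followed one of these patterns. At chr3:56620001-56625000 hnRNPA1 had 16, 17, 17 and 13 peaks against means of 3.75, 0 and 0.5 for hnRNPc, hnRNPI and RBFOX2 (adjusted p = 6.5e-08, limma). At chr20:34225001-34230000 it had 20, 18, 19 and 20 against 1.25, 0.75 and 0.25 (adjusted p = 0.00048, limma). At chr17:80215001-80220000 it shared a window with hnRNPc, with means of 12.5 and 10.5 against 0.5 and 0. Among lower windows, chr7:150815001-150820000 held 1 hnRNPA1 peak in the 4 libraries together, against means of 2, 13.2 and 27, although the gene had 80.5 hnRNPA1 peaks per library. The window took 46.0% of the RBFOX2 peaks of the gene and 0.305% of its hnRNPA1 peaks (adjusted p = 2.7e-08, limma). At chr10:21840001-21845000, chr4:74070001-74075000, chr1:225795001-225800000 and chr9:134360001-134365000 hnRNPA1 had means of 1 to 1.25 peaks, and the mean of at least one other protein was between 13.2 and 16.8. In the windows on chromosomes 4 and 9 all 4 hnRNPA1 libraries had fewer peaks than all 12 others, and in those on chromosomes 10 and 1 the highest hnRNPA1 library tied with RBFOX2 libraries at 2 peaks. As a share of the gene's own peaks, by which windows were chosen, all 10 named windows separated the 4 hnRNPA1 libraries from the 12 others.

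Over all genes, hnRNPA1 peaks fell off from the 5′ towards the 3′ end. The first 10% of the gene held 13.9 ± 0.0951% of hnRNPA1 peaks (SD, n = 4), and the shares fell to 8.03% just before the last 10%, which held 8.85 ± 0.0582%. Gene ends are taken from the outermost peaks of all lists, not from an annotation, and so are approximate. The first 10% held 13.9% for hnRNPc, 12.8% for hnRNPI and 15.2% for RBFOX2, and the last 10% held 8.96, 7.18 and 13.2%. The hnRNPA1 values overlapped those of hnRNPc at both ends. The differences from the 12 libraries together were -0.116 percentage points in the first 10% (adjusted p = 0.788) and -0.920 in the last 10% (adjusted p = 0.649, exact two-sided permutation test with Benjamini-Hochberg adjustment). Among the 100000 strongest peaks the first 10% held 17.1 ± 0.111% of those of hnRNPA1, against 16.9% with hnRNPc, 14.0% with hnRNPI and 14.6% with RBFOX2. The exact permutation p was 0.0115 and 0.0689 after adjustment, and the lowest hnRNPA1 library (17.001%) lay below the highest hnRNPc library (17.121%). In the last 10% these strongest peaks did separate them, with 10.3 to 10.7% for hnRNPA1 and 12.1 to 12.9% for hnRNPc.

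**Figure D3:**
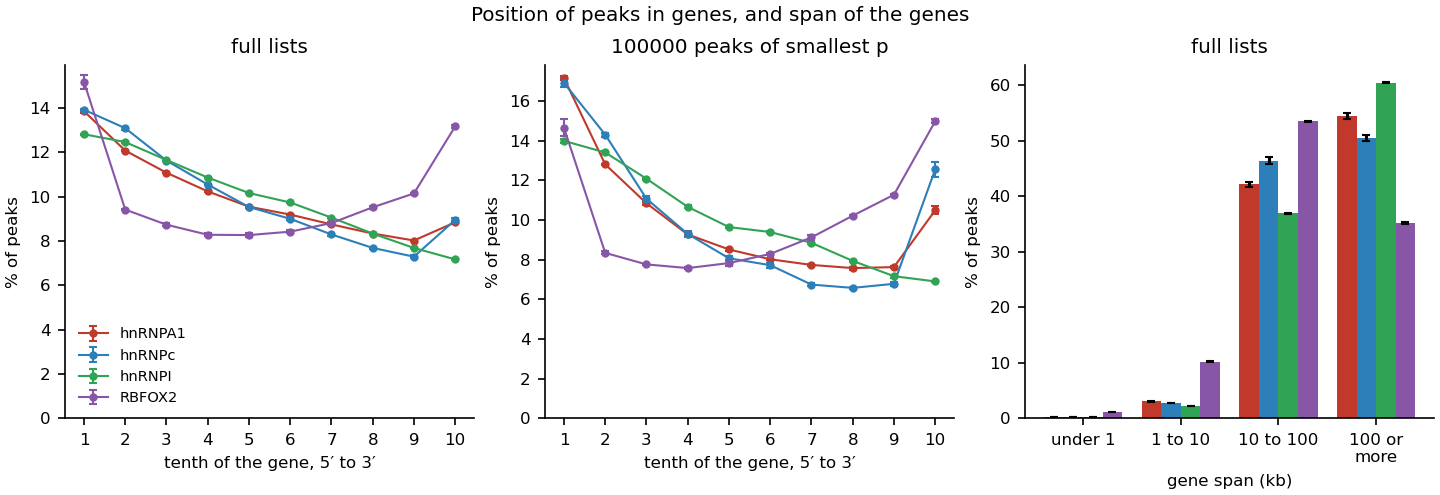
Percent of peaks in each 10% of the gene from 5′ to 3′ (left, all listed peaks; middle, the 100000 peaks of smallest p) and in genes of 4 span classes (right), as mean and SD of 4 libraries per protein. In the full lists hnRNPA1 and hnRNPc start alike (13.9% in the first 10% for both) and lie apart at 12.1 and 13.1% in the next 10%, RBFOX2 rises at the 3′ end to 13.2%, and in genes of 100 kb or more hnRNPA1 (54.5%) lies between hnRNPc (50.5%) and hnRNPI (60.5%).

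At the scale of single sites the hnRNPA1 libraries overlapped each other far more than those of the other proteins. Of the 100000 strongest peaks of an hnRNPA1 library, another of the 4 overlapped 69.3 ± 0.687% by at least 1 nt on the same strand, and 13.1% when the peaks were moved by 1000 nt. hnRNPA1 libraries with PAGE overlapped 58.7% (11.9% when moved), and those without crosslinking or PAGE 38.0% (6.50% when moved). RBFOX2 overlapped 13.04% (6.44% when moved), hnRNPc 10.8% (10.5%) and hnRNPI 5.31% (5.58%). The overlap with hnRNPc and hnRNPI was therefore close to that of moved peaks, although hnRNPc was the protein nearest to hnRNPA1 in gene shares.

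By summed read numbers hnRNPA1 libraries also stood apart on the mitochondrial chromosome. Its transcripts took 24.2 and 24.5% of the summed read numbers in the hnRNPA1 libraries without RecJ and 22.3 and 23.2% in those with RecJ. The means were 13.3 ± 0.529% for hnRNPc, 1.95 ± 0.224% for hnRNPI and 8.54 ± 1.70% for RBFOX2 (SD, n = 4 each), and the highest of the 12 libraries had 14.1%. The exact two-sided permutation p was 0.00128, the smallest that relabelling the 16 libraries within RecJ states can give, and 0.00893 adjusted over 7 measures added after the data were seen. Like the other permutation tests here, it treats the 4 libraries of a protein as separate units. It therefore does not measure how far proteins in general differ from each other. hnRNPA1 libraries without crosslinking had 34.9 and 36.4% without PAGE, above all 4, and 23.97 and 23.8% with PAGE, within their range. In crosslinked hnRNPA1 libraries with PAGE the share was 1.99 and 1.505%. By number of peaks the mitochondrial chromosome took 0.0308% of the hnRNPA1 lists and did not stand apart (exact permutation p = 0.301).

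**Figure D4:**
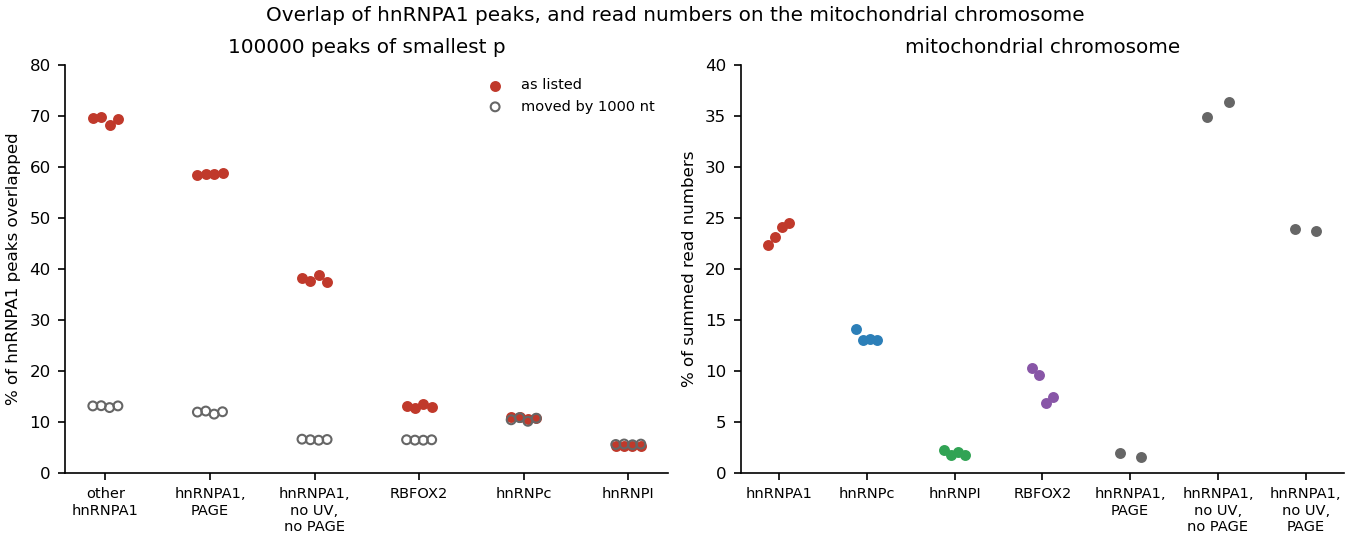
Left, percent of the 100000 strongest peaks of each of the 4 hnRNPA1 libraries that are overlapped by libraries of the named kind (filled) and after moving peaks by 1000 nt (open), averaging 69.3% for other hnRNPA1 libraries and 10.8% for hnRNPc. Right, percent of summed read numbers on the mitochondrial chromosome, 1 point per library, from 22.3 to 24.5% in the 4 hnRNPA1 libraries and at 1.99 and 1.505% in hnRNPA1 libraries with PAGE.

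Most of these reads lay in one gene, at chrM:1673-3203 on the plus strand, with 212129 ± 8512 per 1000000 in hnRNPA1 libraries against 120745, 15951 and 73089 for hnRNPc, hnRNPI and RBFOX2. A short region on the minus strand, chrM:14245-14674, had 3281 ± 390 per 1000000 for hnRNPA1 (SD, n = 4) and 354.4, 72.8 and 239 for the others. hnRNPA1 libraries without crosslinking had more there, 7486 and 14215 without PAGE and 4481 and 6825 with PAGE. Crosslinked libraries with PAGE had 406 and 383 for hnRNPA1, 1065 and 178 for hnRNPc, 89.9 and 129 for hnRNPI, and 282 and 363 for RBFOX2. Among the nuclear genes with most hnRNPA1 reads was a 310 nt region at chr6:52860439-52860748. It had 8764 and 8792 per 1000000 without RecJ and 14464 and 13695 with RecJ, against at most 179 for hnRNPc, 111 for hnRNPI and 1155 for RBFOX2, and was higher against each protein (adjusted p of 4.4e-14 or less, limma). It also had 6745 and 6933 without crosslinking or PAGE, 17459 and 28134 without crosslinking but with PAGE, and 24072 and 15968 in crosslinked libraries with PAGE. With PAGE the region was also high in hnRNPc libraries, at 15532 in replicate 1, the list of 3268 peaks, and 1669 in replicate 2. A gene at chr11:65266513-65273500 had 11109 ± 672 per 1000000 for hnRNPA1, against 5348 with hnRNPc, 425 with hnRNPI and 6028 with RBFOX2. Without crosslinking hnRNPA1 had 5962 and 8559 there without PAGE and 7659 and 6950 with PAGE. Crosslinked libraries with PAGE had 8539 and 7991 for hnRNPA1, 7759 and 7483 for RBFOX2, and 634 and 671 for hnRNPI. Those of hnRNPc had 34982 in the list of 3268 peaks and 7145 in the other. The reverse held at chr11:62609095-62609283, a 189 nt region, with 2200 ± 798 for hnRNPA1, 8740 and 7990 for hnRNPc and hnRNPI, and 121842 for RBFOX2. By read numbers over all genes, 49 of 7091 were higher in hnRNPA1 than in each protein (0.691%) and 44 lower (0.621%). Against the mean 929 were higher (13.1%) and 616 lower (8.69%), against hnRNPc 387 higher (5.46%) and 764 lower (10.8%), against hnRNPI 1335 higher (18.8%) and 1080 lower (15.2%), and against RBFOX2 4326 higher (61.0%) and 1197 lower (16.9%). On this scale the median gene already lay 0.39 above 0 in the difference from the mean and 1.42 above 0 in that from RBFOX2. The part that carry-over of uncrosslinked RNA has in these read numbers was not tested.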

How the data were processed

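The deposited files are 68 peak lists of HEK293T libraries, called per library and not pooled. The submitters' processing notes name bcl2fastq, STAR 2.7.3a, UMI-tools 1.0.1 and the build hg19, without settings. Each list gives peak positions, a gene identifier and the p-value of each peak as deposited by the authors (largest 0.00755 in these 16 lists), and whether that p was adjusted is not given in the sources used here. Other columns hold the peak positions the authors deposited. Peaks were counted per gene and tested as log2(share + 1) with limma 3.58.1 (R 4.3.3, eBayes with trend), with each protein and RecJ state as a group mean and all 16 libraries in the fit. Windows of 5 kb (mean of at least 5 peaks, at least 3 such windows per gene, mean of at least 20 peaks in the gene) were tested likewise as log2 of window over gene peaks, with 0.5 added to both. Library measures were tested by exact permutation within RecJ states (numpy 2.4.6). Named genes were up to 10 each way called against each protein, without overlap between hnRNPA1 and other libraries and with a share of at least 10 on the higher side, which gave 0 higher and 3 lower genes, and the 5 of highest hnRNPA1 share. Named windows were the 5 of largest difference each way without overlap, 1 per gene, with a mean of at least 10 peaks on the higher side. Gene symbols could be matched for 0 of 22843 identifiers, so the 15 gene lists, cell type markers, motifs and exon or intron classes that had been planned were not used here. The gene test was tested on simulated data first. The members and lists were chosen with earlier results of these data known.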

Additional observations from a re-analysis of the deposited data

How the results depend on the processing

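The number of genes called against the mean of the 3 proteins (387) moved to 2572 with 100000 peaks per library, 1782 with p below 1e-05, 1545 with summed read numbers, 906 and 14 with pseudocounts of 0.25 and 4, and 34 with a minimum share of 10. In the same order the number against hnRNPc (573) moved to 2852, 1819, 1151, 1084, 53 and 77. Against hnRNPI (1609) it was 3973, 3087 and 2415 with the other peak sets and read numbers, 249 with a pseudocount of 4 and 151 with a minimum share of 10, and against RBFOX2 (4065) it was 2142 and 1053 under the last 2. The 2 genes higher against each protein became 1 after median centring, 145 with 100000 peaks, 53 with p below 1e-05, 49 with read numbers, 4 with a pseudocount of 0.25, 9 without a minimum share and 1 without the RecJ libraries. They became 0 by limma with a pseudocount of 4, a minimum share of 10, or the RecJ libraries only, and 0 also at an unadjusted p below 0.05 with the same fold. The 15 lower genes became 234, 94, 44 and 45 with 100000 peaks, p below 1e-05, read numbers and a pseudocount of 0.25, and 1 each with a pseudocount of 4 or a minimum share of 10. Called windows (1897) numbered 61 at 2 kb, 375 with 100000 peaks, 1008 with peaks joined and 845 with p below 1e-05. The direction turned for the median position when each gene counted 1 (0.00222), for the first 10% of genes with 100000 peaks (1.97 percentage points), with p below 1e-05 (1.32) and with RecJ libraries only (0.046), and for ENSG00000126016.9 with read numbers (log2 1.14). The causes were not tested. Leaving out 1 library at a time gave 381 to 417 genes against the mean, 523 to 657 against hnRNPc, 1581 to 1646 against hnRNPI, 3998 to 4119 against RBFOX2, 1 to 2 higher and 13 to 16 lower against each protein, and 1773 to 1956 windows. The difference in the first 10% of genes ran from -0.245 to 0.0227, turning without RBFOX2_50k_noPAGE replicate 1 or 2, and that in mitochondrial read share from 14.9 to 16.2. With the replicate number as a block the counts were 387, 573, 1609 and 4065 genes, 2 and 15 against each protein, and 1897 windows, and no call named in the text changed. Same-numbered libraries deviated together with correlations from -0.0233 to 0.0874, so the numbers do not pair them. Sequencing depth is unknown for every library, which limits how far lists of different length can be compared.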
